A study of Drosophila melanogaster with 8 samples.

Results

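The comparison described here sets every other genotype of a fly head RNA-seq study against its control line, PA36, in which neurons express a proline-alanine repeat. The members are libraries: 7 of the 8 in the study have a named column of values, 5 from the other genotypes (2 PR36, 2 (G4C2)36 and 1 UPF1 RNAi) taken as one group, and 2 from PA36. The second UPF1 RNAi library is not analysed here. All flies were female Drosophila melanogaster aged 5 days, kept at 24 °C, and all carried the pan-neuronal driver Elav, so the controls also express a transgene in neurons. The driven transgene was PR36 (a proline-arginine repeat of 36 units), (G4C2)36 (the GGGGCC repeat itself) or UPF1 RNAi (a silencing RNA against the helicase Upf1), against PA36 in the control line. Whole heads were used, 40 per genotype, so each library pools animals and holds RNA of cells in which Elav is not active. The labels give no parental stock or insertion site. A difference between fly lines and an effect of a transgene therefore cannot be told apart in any result below, and no label says that the 2 libraries of a genotype came from separate cultures, so p-values measure the spread between libraries, which may be technical.

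A GGGGCC expansion in the human gene C9orf72 is the most common inherited cause of amyotrophic lateral sclerosis and frontotemporal dementia. The repeat RNA is translated in several frames into dipeptide repeat proteins, of which the arginine-rich ones are toxic in flies while proline-alanine is the usual benign control. Upf1 drives nonsense-mediated mRNA decay (NMD), which removes transcripts with early stop codons. Because every effect of a repeat or of UPF1 RNAi is read against PA36, a gene that stands apart in PA36 alone appears in each of those readings at once. The comparison asks which genes those are.

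Gene levels are given in TPM, which scale the reads of a transcript by its length and by all reads of the library, summed here over the listed transcripts of a gene. TPM keep no read number, so depth is unknown. Listed TPM added up to 712972 to 877933 per library, and 9113 to 9345 genes reached 1 TPM. PA36 libraries resembled the others about as much as these resembled each other: across 9287 genes, which are not independent, Pearson correlations of log2(TPM + 1) were 0.924 to 0.95 between a library of another genotype and a PA36 library, 0.926 to 0.945 between libraries of the other genotypes, and 0.943 between both PA36 libraries. The head markers fixed for neurons, photoreceptors, glia and muscle were all listed (6, 6, 5 and 5 genes), and of these 4, 6, 5 and 5 reached 1 TPM in every library. Summed marker levels overlapped for neurons (1216 to 1485 TPM in the other genotypes, 1035 to 1465 TPM in PA36), photoreceptors (25377 to 35481 TPM in the other genotypes, 28373 to 30087 TPM in PA36) and muscle (1220 to 2802 TPM in the other genotypes, 1192 to 1638 TPM in PA36), and did not for glia (1003 to 1492 TPM in the other genotypes, 909 to 972 TPM in PA36). In bulk tissue fewer cells of a type and less RNA per cell cannot be told apart. Heat shock genes were high in 1 library on each side, at a sum of 11040 TPM in PR36 replicate 1 against 2587 to 3596 TPM in the other 4, and at 9163 TPM in PA36 replicate 1 against 2580 TPM in PA36 replicate 2. Upf1 itself stood at 18.6 and 19.6 TPM in the PR36 libraries, 18.2 and 16 TPM in the (G4C2)36 libraries and 11.3 TPM in the UPF1 RNAi library, against 10.3 and 19.1 TPM in the PA36 libraries. Its groups overlap, and the UPF1 RNAi value lies between the PA36 values, so this gene does not check the label.

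Few genes set PA36 apart. Of 9287 genes tested, 15 (0.162%) differed between the other genotypes and PA36 by limma with a Benjamini-Hochberg adjusted p below 0.05, 11 (0.118%) higher and 4 (0.0431%) lower in the other genotypes. An unadjusted limma p below 0.05 was found for 472 of the 9287 genes, near the share of 0.05 that would be met if no gene differed. Most of the 15 differed by a large factor or were listed at 0 on one side. Fold changes are the other genotypes over PA36, on the log2(TPM + 1) scale, which understates changes of weakly expressed genes. Their standard errors (SE) hold the differences among the other 3 genotypes as well as those between replicates. Of all 9287 genes, 6553 had a fold change above 0, and counts above 0 in the gene lists below stand beside that share. The number of calls depended on single libraries: it was 26 without PA36 replicate 1, 54 without PA36 replicate 2 and 10 without PR36 replicate 2. Under median-of-ratios rescaling of the libraries it was 12, of which 8 were higher and 4 lower.

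Vermilion (v; X, 10923972 to 10925631, BDGP6) encodes tryptophan dioxygenase, the enzyme that opens the pathway from tryptophan to the brown eye pigment, and is also a classic marker gene of fly stocks. It stood at 51.3 and 47.6 TPM in the PR36 libraries, 43.5 and 38.7 TPM in the (G4C2)36 libraries and 40.4 TPM in the UPF1 RNAi library, against 3.64 and 2.77 TPM in the PA36 libraries. The 5 libraries of the other genotypes lie close together, and both PA36 libraries lie far below all of them. Its log2 fold change was 3.43 (SE 0.17, limma adjusted p = 0.00013), and it passed under all 19 alternatives. Other genes of tryptophan and pigment metabolism did not move with it: of 15 tested, v was the only one that passed, 9 had a fold change above 0, and the median was 0.09 against 0.12 over all genes. Among the eye colour and stock marker genes, st, w, ry and se had adjusted p of 0.9 to 0.97 with overlapping groups, for example st at 11 and 6.65 TPM in the PR36 libraries, 11.7 and 6.07 TPM in the (G4C2)36 libraries and 6.8 TPM in the UPF1 RNAi library, against 7.76 and 4.17 TPM in the PA36 libraries. The driver gene elav overlapped too, at 43.2 to 58.9 TPM in the other genotypes and 31 and 62.1 TPM in PA36.

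The gene next to v was also higher. CG43901 (X, 10905767 to 10923436) ends 536 bases before v on the same strand, and it stood at 6.71 and 5.5 TPM in the PR36 libraries, 5.75 and 4.2 TPM in the (G4C2)36 libraries and 5.98 TPM in the UPF1 RNAi library, against 0.417 and 0.981 TPM in the PA36 libraries. These groups lie far apart. The log2 fold change was 1.97 (SE 0.25, limma adjusted p = 0.032), from 1 of the gene's 3 reference transcripts. The call was lost under 9 of 17 alternatives, among them leaving out PR36 replicate 1 (adjusted p = 0.087), PR36 replicate 2 (0.11), (G4C2)36 replicate 1 (0.11), UPF1 RNAi replicate 1 (0.079) or PA36 replicate 1 (0.15). On the other side of v, CG2145, 1768 bases away, stood at 124 to 134 TPM in the other genotypes and at 118 and 152 TPM in PA36 (log2 fold change -0.05). The rise near v thus covered v and CG43901 and not CG2145. On the far side of CG43901, CG1582 had a log2 fold change of -0.16 (SE 0.16). Beyond it, Ork1 was lower in every library of the other genotypes than in both PA36 libraries. Its log2 fold change of -0.93 (SE 0.32) did not pass (limma adjusted p = 0.9). Whether the reads were counted by strand is not given in the sources used here.

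Cp1 was the gene with the largest fall among those that passed. It encodes a cathepsin L, a cysteine protease of lysosomes, and lies on 2R from 13960675 to 13967981. It stood at 8.32 and 7.43 TPM in the PR36 libraries, 8.39 and 4.76 TPM in the (G4C2)36 libraries and 11.4 TPM in the UPF1 RNAi library, against 480 and 432 TPM in the PA36 libraries. Every library of the other genotypes was far below both PA36 libraries, and the log2 fold change was -5.70 (SE 0.26). It passed the limma test (adjusted p = 0.00013), also under all 18 alternatives. The difference sits in 1 transcript. FBtr0087592 had values of 472 and 428 TPM in the PA36 libraries and was listed at 0 in the 5 others, while FBtr0304021 stood at 7.05 and 6.68 TPM in the PR36 libraries, 8.39 and 4.76 TPM in the (G4C2)36 libraries and 11.4 TPM in the UPF1 RNAi library, against 7.71 and 3 TPM in the PA36 libraries. Thus FBtr0304021 is present on both sides at like levels, and FBtr0087592 has values in PA36 alone. A further listed transcript, FBtr0339955, was low on both sides, at 1.27 and 0.753 TPM in the PR36 libraries and 0 and 1.12 TPM in the PA36 libraries. It was listed at 0 in the (G4C2)36 and UPF1 RNAi libraries. Of the 4 reference transcripts of Cp1, 3 are listed, and an exact 0 can be a failed estimate. Of the 19 lysosomal proteases and hydrolases tested, Cp1 was the only one that passed, and the median was 0.10. CtsB1, a cathepsin B, stood at 259 to 355 TPM in the other genotypes against 286 and 274 TPM in PA36, and cathD, a cathepsin D, at 292 to 385 TPM in the other genotypes against 351 and 382 TPM in PA36. None of the 12 genes tested within 20 kb of Cp1 passed. CG42806, nested in Cp1 on the same strand, stood at 22.1 and 48.6 TPM in the PR36 libraries, 52.8 and 29 TPM in the (G4C2)36 libraries and 71.7 TPM in the UPF1 RNAi library, against 13 and 20.7 TPM in the PA36 libraries (log2 fold change 1.28, SE 0.43, adjusted p = 0.9). The groups of CG42806 do not overlap, but their nearest libraries lie close together.

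Non-coding RNA genes made up most of the other genes with RNA in PA36 alone. Uhg1 (2R, 17699097 to 17703344), whose introns carry small nucleolar RNAs that guide the modification of ribosomal RNA, was listed at 0 in the 5 other libraries and reached 13 and 10 TPM in the PA36 libraries, with a limma adjusted p of 0.003. Both listed Uhg1 transcripts showed this, at 11.5 and 8.16 TPM and at 1.5 and 1.86 TPM in PA36. The hairpin RNA gene hpRNA:CR33940 (3L, 19486745 to 19488439), of a class whose transcripts are cut into small interfering RNAs, was listed at 0 in the 5 other libraries and reached 7.66 and 7.74 TPM in the PA36 libraries, with a limma adjusted p of 0.0065. A neighbouring hairpin gene, hpRNA:CR32207, was listed at 0 in both PR36 libraries, at 0 and 2.54 TPM in the (G4C2)36 libraries and at 0 in the UPF1 RNAi library, against 5.22 and 8.8 TPM in the PA36 libraries, and did not pass (adjusted p = 0.43). Its groups do not overlap. The protein-coding gene CG12395 (X, 16061902 to 16062898) was listed at 0 and 0.0797 TPM in the PR36 libraries and at 0 in both (G4C2)36 libraries and the UPF1 RNAi library, against 17 and 12.1 TPM in the PA36 libraries, with a limma adjusted p of 0.0021. So the 3 genes that passed here are near or at 0 in every library but those of PA36. They reached the filter of a mean of 1 TPM only through the PA36 libraries. Their p-values are therefore no support beyond the values listed. With a pseudocount of 0.1 instead of 1, which weights values near 0 more, the adjusted p were 0.26 for Uhg1, 0.54 for hpRNA:CR33940 and 0.16 for CG12395. The call of hpRNA:CR33940 was also lost without PA36 replicate 1 (0.07). In the list of 8 snoRNA host and hairpin genes tested, the other 5 had overlapping groups, for example Uhg5 at 37.5 and 49.3 TPM in the PR36 libraries, 64 and 41.2 TPM in the (G4C2)36 libraries and 73 TPM in the UPF1 RNAi library, against 35.4 and 38.6 TPM in the PA36 libraries.

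Around Uhg1 the annotated genes overlap, and the division of reads among them is uncertain. Inside Uhg1 lie 16 small nucleolar RNA genes. CG46315 and CG6424 share the same annotated coordinates (2R, 17703335 to 17719346) on the opposite strand, so how reads were divided between these genes is uncertain. With Uhg1, which ends at 17703344, they share only their last few bases. CG46315 stood at 59.6 and 60 TPM in the PR36 libraries, 38.5 and 49.7 TPM in the (G4C2)36 libraries and 87.7 TPM in the UPF1 RNAi library, against 16.2 and 5.79 TPM in the PA36 libraries. Its groups do not overlap, and the log2 fold change of 2.42 (SE 0.39) did not pass (adjusted p = 0.1). CG6424 stood at 121 to 434 TPM in the other genotypes and at 228 and 182 TPM in PA36 (0.03). Of the small nucleolar RNA genes inside Uhg1, only snoRNA:U27:54Eb was tested, at 1.82 and 0.675 TPM in the PR36 libraries, 0.527 and 0.844 TPM in the (G4C2)36 libraries and 0 in the UPF1 RNAi library, against 2.4 and 2.34 TPM in the PA36 libraries (adjusted p = 0.9). Within 20 kb of hpRNA:CR33940, CG9451 was lower in every library of the other genotypes, at 91.1 and 65.8 TPM in the PR36 libraries, 92.6 and 61.7 TPM in the (G4C2)36 libraries and 38.8 TPM in the UPF1 RNAi library, against 131 and 146 TPM in the PA36 libraries (log2 fold change -1.04, SE 0.32, adjusted p = 0.9).

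**Figure D1:**
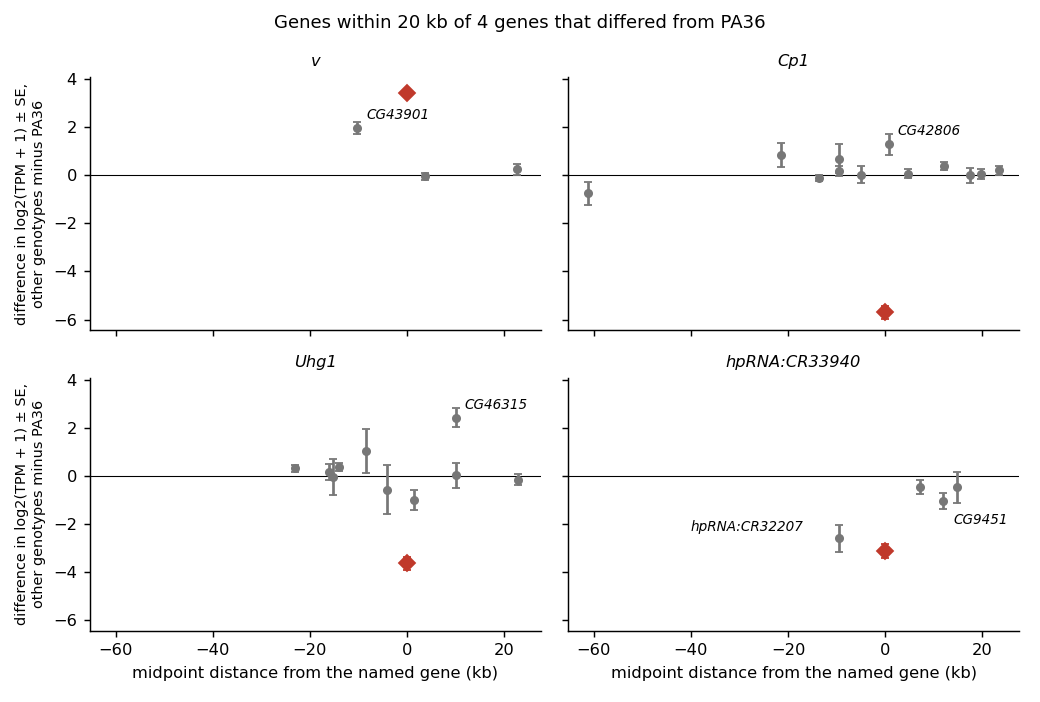
Difference in log2(TPM + 1) between the other genotypes and PA36, with its SE, for each gene tested within 20 kb of v, Cp1, Uhg1 and hpRNA:CR33940, against the distance in kb between gene midpoints. Red diamonds mark the named gene and grey points its neighbours; CG43901 beside v, at 1.97, is the only neighbour that passed the test, and the differences of Uhg1 and hpRNA:CR33940 are no folds because both are listed at 0 in the other genotypes.

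Among enzymes and chaperones, calnexin (Cnx99A; 3R, 29315254 to 29319644), a lectin chaperone of the endoplasmic reticulum that rhodopsin needs to mature in fly photoreceptors, stood at 86.7 and 116 TPM in the PR36 libraries, 106 and 53.3 TPM in the (G4C2)36 libraries and 129 TPM in the UPF1 RNAi library, against 7.9 and 10.1 TPM in the PA36 libraries. The lowest of the 5 is far above both PA36 libraries. The log2 fold change was 3.26 (SE 0.32, limma adjusted p = 0.0081), and the call was lost without PA36 replicate 1 (adjusted p = 0.059). In 2 of its transcripts the difference was large (FBtr0085438 at 26.4 to 68.2 TPM in the other genotypes against 2.04 and 3.29 TPM in PA36, and FBtr0334873 at 24.8 to 61.9 TPM in the other genotypes against 1.9 and 2.78 TPM in PA36), whereas FBtr0085437 overlapped, at 0.784 to 19.3 TPM in the other genotypes and at 3.9 and 3.97 TPM in PA36. No other gene was tested within 20 kb of Cnx99A. Formaldehyde dehydrogenase (Fdh; 3R, 10870906 to 10872381), which clears formaldehyde bound to glutathione, stood at 53.4 and 74.3 TPM in the PR36 libraries, 120 and 93.9 TPM in the (G4C2)36 libraries and 122 TPM in the UPF1 RNAi library, against 12 and 9.24 TPM in the PA36 libraries. Its groups are well apart (log2 fold change 2.96, SE 0.32, limma adjusted p = 0.014), and the call was lost without PA36 replicate 1 (adjusted p = 0.057) or PA36 replicate 2 (0.062). None of the 17 genes tested within 20 kb of Fdh passed. Its nearest neighbours on either side, Tsp86D and CG4596, had log2 fold changes of 0.05 and 0.22, and neither passed. Over the 17 genes the log2 fold changes ran from -0.26 to 1.52, with a median of 0.20. The highest was CG14695, at 1.85 to 8.98 TPM in the other genotypes against 0.319 and 0.552 TPM in PA36. It did not pass (SE 0.50, limma adjusted p = 0.9). Isopeptidase-T-3, named for an enzyme that takes ubiquitin chains apart (2R, 19670618 to 19673477), stood at 5.16 and 8.09 TPM in the PR36 libraries, 8.87 and 8.6 TPM in the (G4C2)36 libraries and 11.7 TPM in the UPF1 RNAi library, against 1.1 and 0 TPM in the PA36 libraries (log2 fold change 2.67, SE 0.36, limma adjusted p = 0.041). It is a weaker call, lost under 12 of 19 alternatives, among them leaving out PR36 replicate 2 (adjusted p = 0.12), (G4C2)36 replicate 1 (0.15) or 2 (0.13), UPF1 RNAi replicate 1 (0.077) or PA36 replicate 2 (0.091).

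S6kII (X, 22529964 to 22536371), the fly RSK kinase, which binds ERK and dampens its signalling, stood at 11.7 and 16.1 TPM in the PR36 libraries, 15.7 and 9.28 TPM in the (G4C2)36 libraries and 12.4 TPM in the UPF1 RNAi library, against 1.1 and 0.955 TPM in the PA36 libraries. The groups are far apart, and the log2 fold change was 2.77 (SE 0.23) with a limma adjusted p of 0.0033. Of its 2 transcripts, FBtr0077360 stood at 0.997 and 13.2 TPM in the PR36 libraries, 13.4 and 0.567 TPM in the (G4C2)36 libraries and 1.14 TPM in the UPF1 RNAi library, against 0.609 and 0.34 TPM in the PA36 libraries. FBtr0333715 stood at 10.7 and 2.85 TPM in the PR36 libraries, 2.28 and 8.71 TPM in the (G4C2)36 libraries and 11.3 TPM in the UPF1 RNAi library, against 0.488 and 0.615 TPM in the PA36 libraries. Replicates of 1 genotype thus differ in which transcript carries the reads, and only the sum is alike. S6kII overlaps CG17598 and CG17600 in the annotation, whose log2 fold changes were -0.37 and 0.34. A CG17598 transcript, FBtr0077364, was high in the same libraries as FBtr0077360, at 29.6 TPM in PR36 replicate 2 and 35.9 TPM in (G4C2)36 replicate 1. It stood at 0.367 to 0.477 TPM in the other libraries, PA36 included. How reads were divided among these overlapping genes is uncertain. The ERK gene itself, rolled (rl), stood at 9.31 and 12.7 TPM in the PR36 libraries, 58.3 and 21.1 TPM in the (G4C2)36 libraries and 22 TPM in the UPF1 RNAi library, against 0.521 and 0.284 TPM in the PA36 libraries. Its groups do not overlap, but the 5 libraries spread widely, and the log2 fold change of 3.92 (SE 0.58) did not pass (adjusted p = 0.071). Of the 19 genes of the Ras-ERK pathway and S6 kinase list tested, S6kII was the only one that passed. In this list 18 were above 0, as were 6553 of all 9287 genes, and the median was 0.18 against 0.12 over all genes.

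Genes of other or unknown roles completed the 15. CG32091 (3L, 11631392 to 11642902) stood at 11.5 and 12.8 TPM in the PR36 libraries, 18.1 and 9.5 TPM in the (G4C2)36 libraries and 7.68 TPM in the UPF1 RNAi library, and was listed at 0 in both PA36 libraries (limma adjusted p = 0.0033). Uninflatable (uif; 2L, 6972828 to 7010359), a membrane protein of epithelia that was first described in the airways of the larva, stood at 4.01 and 5.25 TPM in the PR36 libraries, 6.73 and 5.15 TPM in the (G4C2)36 libraries and 3.53 TPM in the UPF1 RNAi library, and was also listed at 0 in both PA36 libraries (adjusted p = 0.014). The call of uif was lost without PR36 replicate 2 (adjusted p = 0.063) or PA36 replicate 1 (0.059). CG17816 (3R, 7855582 to 7886733) stood at 32.6 and 16.6 TPM in the PR36 libraries, 22.3 and 12.6 TPM in the (G4C2)36 libraries and 18.4 TPM in the UPF1 RNAi library, against 2.1 and 0.433 TPM in the PA36 libraries (log2 fold change 3.28, SE 0.39, limma adjusted p = 0.025), from 4 of 8 reference transcripts. Its call was lost without PR36 replicate 2 (adjusted p = 0.063), (G4C2)36 replicate 1 (0.099), UPF1 RNAi replicate 1 (0.054) or PA36 replicate 2 (0.066). CG16926 (2R, 19500295 to 19501418), the most highly expressed of the 15 outside PA36, stood at 264 and 236 TPM in the PR36 libraries, 247 and 196 TPM in the (G4C2)36 libraries and 346 TPM in the UPF1 RNAi library, against 87.1 and 74.9 TPM in the PA36 libraries. Its groups are well apart, and its log2 fold change, 1.64 (SE 0.21, limma adjusted p = 0.039), was the smallest of the 15. Its call was lost without PR36 replicate 1 (adjusted p = 0.09) or 2 (0.11), (G4C2)36 replicate 1 (0.12), or PA36 replicate 1 or 2 (0.15 each). The last of them is a small nucleolar RNA gene on 2R (13557700 to 13557850) at 2.86 to 4.13 TPM in the other genotypes and 0.148 and 0.243 TPM in PA36 (log2 fold change 1.91, SE 0.25, limma adjusted p = 0.038). Leaving out any 1 of the 7 libraries ended that call, at adjusted p of 0.067 to 0.15.

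**Figure D2:**
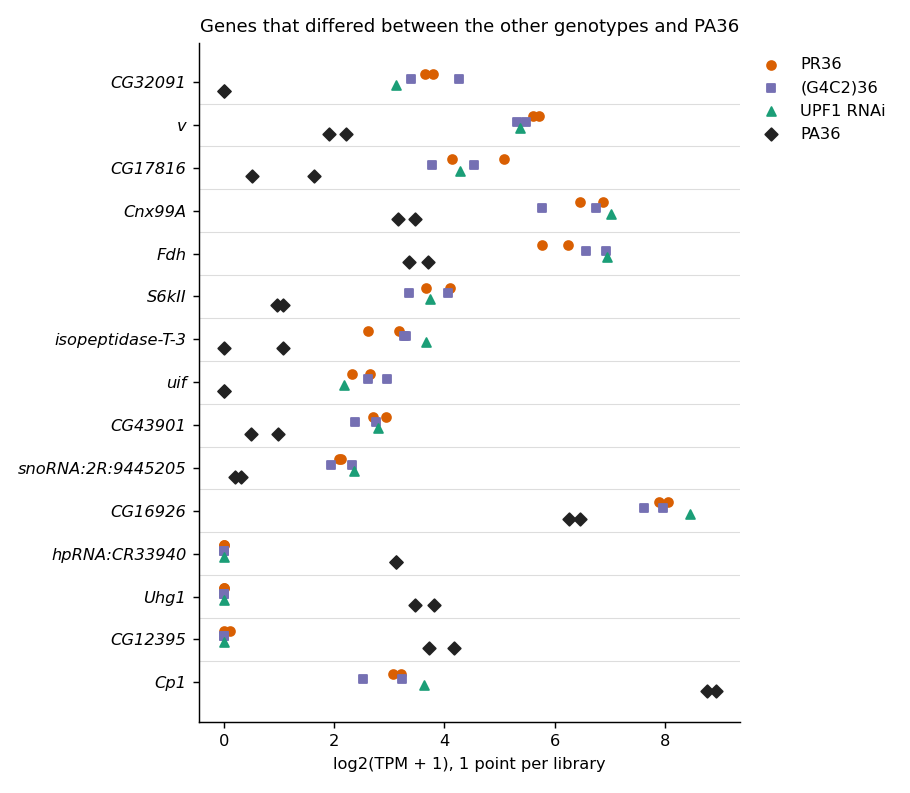
Level of each of the 15 genes that differed between the other genotypes and PA36, as log2(TPM + 1) with 1 point per library, for PR36 (2 libraries), (G4C2)36 (2), UPF1 RNAi (1) and PA36 (2). In every gene the 5 coloured points lie on 1 side of both black PA36 points, with 11 genes higher and 4 lower in the other genotypes.

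Beside the 4 genes that fell, the genes with the smallest p among those lower in the other genotypes did not pass. Dronc, the initiator caspase of fly apoptosis, stood at 9.36 and 9.18 TPM in the PR36 libraries, 8.6 and 9 TPM in the (G4C2)36 libraries and 8.18 TPM in the UPF1 RNAi library, against 17.7 and 17.3 TPM in the PA36 libraries. Both groups are tight and far apart for their size, and the log2 fold change of -0.91 (SE 0.14, adjusted p = 0.08) passed under 0 of 19 alternatives. The gene sgll, whose enzyme makes the active form of vitamin B6, stood at 2.63 and 4.63 TPM in the PR36 libraries, 6.68 and 9.89 TPM in the (G4C2)36 libraries and 8.4 TPM in the UPF1 RNAi library, against 39.7 and 46.5 TPM in the PA36 libraries (log2 fold change -2.66, SE 0.40, adjusted p = 0.071). Every library of the other genotypes was below both PA36 libraries. The sgll gene passed under 2 of 19 alternatives, with equal weight per genotype (limma adjusted p = 0.01) and without PR36 replicate 1 (0.032). CG8745 stood at 48.3 to 73.4 TPM in the other genotypes against 175 and 139 TPM in PA36 (-1.32, SE 0.19, adjusted p = 0.069). CG8008 and CG34215 had log2 fold changes of -1.29 and -2.18 (adjusted p = 0.22 and 0.23). On the higher side, the non-coding gene CR43242 (2L) stood at 14 to 21.3 TPM in the other genotypes against 4.41 and 6.67 TPM in PA36 (1.47, SE 0.21, adjusted p = 0.064), and passed under 4 of 19 alternatives.

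Single transcripts were also listed on 1 side alone. Of 26309 transcripts, 13 (0.0494%) reached 1 TPM in all 5 libraries of the other genotypes and were listed at 0 in both PA36 libraries, and 8 (0.0304%) were listed at 0 in those 5 and reached 1 TPM in both PA36 libraries. Counted the same way, 11 transcripts (0.0418%) were found in both PR36 libraries alone and 12 (0.0456%) in all but these, and 32 (0.122%) in both (G4C2)36 libraries alone and 17 (0.0646%) in all but these. PA36 is therefore not richer in such transcripts than the other genotypes with 2 libraries. Some of these transcripts belong to genes whose summed level overlapped between the groups or differed little. A transcript of Rho1, a GTPase that organizes the actin skeleton, stood at 47.9 and 1.76 TPM in the PR36 libraries, 6.82 and 72.1 TPM in the (G4C2)36 libraries and 3.15 TPM in the UPF1 RNAi library and was listed at 0 in PA36, but the gene stood at 235 to 319 TPM in the other genotypes and at 294 and 315 TPM in PA36. A transcript of alpha-Spec, a spectrin of the membrane skeleton, was listed in PA36 alone, at 4.71 and 8.35 TPM, while the gene stood at 77 to 115 TPM in the other genotypes and at 73.5 and 117 TPM in PA36. The same held for Arf79F, a GTPase of vesicle budding, with 5.13 and 4.06 TPM of 1 transcript in PA36 alone and a gene level of 301 to 377 TPM in the other genotypes against 282 and 287 TPM in PA36. Over whole genes, 4 of 13656 (0.0293%) were listed at 0 in PA36 alone: CG32091, uif, the cuticle protein gene Cpr76Bd and otk, a relative of receptor kinases. The reverse held for 2 (0.0146%), Uhg1 and hpRNA:CR33940. In PR36 the same counts were 3 genes (0.022%) and 2 genes (0.0146%), and in (G4C2)36 they were 3 genes (0.022%) and 10 genes (0.0732%).

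The other genotypes with 2 libraries were also set against the rest. The same model, with 1 genotype against the 5 libraries of the rest, called 7 genes (0.0754%) in PR36, 3 higher and 4 lower, and 18 genes (0.194%) in (G4C2)36, 11 higher and 7 lower, against the 15 of the PA36 comparison. These comparisons share libraries. Unadjusted p below 0.05 were found for 255 genes in PR36 and for 602 in (G4C2)36, against 472. The 472 are near the share of 0.05 of all genes that would be met if no gene differed, so they do not set PA36 apart. In number of genes without overlap, PR36 was above all other libraries in 366 (3.94%) and below them in 188 (2.02%), and (G4C2)36 was above them in 626 (6.74%) and below in 245 (2.64%). In the PA36 comparison, 805 genes (8.67%) were higher in all 5 libraries of the other genotypes than in both PA36 libraries, and 139 (1.5%) were lower. Both directions together made 554 genes (5.97%) in PR36, 871 (9.38%) in (G4C2)36 and 944 (10.2%) for PA36, so PA36 had the most genes without overlap and (G4C2)36 the most calls. The 7 libraries can be split into 2 and 5 in 21 ways, and for a gene without any difference each is equally likely to hold the 2 lowest values. Lack of overlap is thus common without a difference, and these counts alone do not show that a genotype stands apart. The excess of genes above PA36 depended on the scaling. Over all genes the median log2 fold change against PA36 was 0.118, and after median-of-ratios rescaling, which brought it to 0.004, the counts were 525 (5.65%) higher and 501 (5.39%) lower. Rescaled in the same way, both directions made 742 genes in PR36, 1369 in (G4C2)36 and 1026 for PA36, so that the order of PA36 and (G4C2)36 turned round. With 1 library left out the counts were larger, at 3137 genes higher and 446 lower without PA36 replicate 2. They were 1520 higher and 882 lower without PA36 replicate 1. Without (G4C2)36 replicate 2, 1514 were higher. Lower genes numbered 297 without PR36 replicate 2 and 263 without (G4C2)36 replicate 1. Lack of overlap is easier to meet with fewer libraries, also for genes without any difference. These larger counts therefore do not show that the result rested on the library left out.

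**Figure D3:**
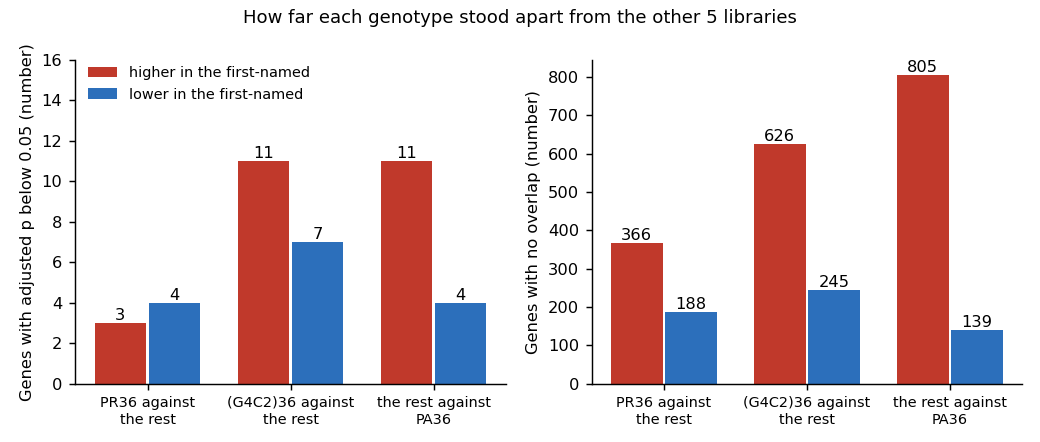
Number of genes that set 1 genotype apart from the other 5 libraries, for PR36, (G4C2)36 and PA36, as genes with a limma adjusted p below 0.05 (left) and as genes whose groups do not overlap (right), with higher (red) and lower (blue) in the first-named group. The called genes number 7, 18 and 15, and the 805 and 139 genes without overlap in the PA36 comparison become 525 and 501 after rescaling.

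The reported NMD targets bear on the use of PA36 as a control, since the study reads them against it. Arc1, whose product assembles into virus-like capsids at synapses, stood at 156 and 142 TPM in the PR36 libraries, 113 and 83.8 TPM in the (G4C2)36 libraries and 62.7 TPM in the UPF1 RNAi library, against 23.8 and 29.8 TPM in the PA36 libraries. All 5 libraries are above both PA36 libraries, with PR36 highest and UPF1 RNAi lowest of them. The log2 fold change of 1.95 (SE 0.34) did not pass over all genes (limma adjusted p = 0.16). Arc1 passed under 2 of 19 alternatives, with equal weight per genotype (log2 fold change 1.83, adjusted p = 0.014) and without the UPF1 RNAi library (2.14, adjusted p = 0.046). Gadd45, a stress-response gene, stood at 38.6 and 37.4 TPM in the PR36 libraries, 38.9 and 24.2 TPM in the (G4C2)36 libraries and 109 TPM in the UPF1 RNAi library, against 15.1 and 18.3 TPM in the PA36 libraries (1.33, SE 0.48, adjusted p = 0.9). Oda, an inhibitor of ornithine decarboxylase, stood at 1358 to 1848 TPM in the other genotypes and at 1349 and 1223 TPM in PA36 (0.21), and tra, the sex determination gene transformer, at 12.2 to 25.9 TPM in the other genotypes and at 14.3 and 14.1 TPM in PA36 (0.21). None of the 4 passed, against 0.162% of all genes, and the first 3 do not overlap, with all 5 libraries above PA36, as in 8.67% of all genes. For Oda the nearest libraries lie close together, at 1358 and 1349 TPM. After median-of-ratios rescaling the log2 fold change was 0.08 for Oda, 1.83 for Arc1 and 1.21 for Gadd45. The neighbours of Arc1, which are related to it, were higher in all 5 libraries too. Arc2 stood at 8.03 and 11.4 TPM in the PR36 libraries, 13.7 and 8.46 TPM in the (G4C2)36 libraries and 20.7 TPM in the UPF1 RNAi library, against 3.81 and 2.85 TPM in the PA36 libraries (1.57, adjusted p = 0.43), and the pseudogene CR10102 had a log2 fold change of 1.31 (adjusted p = 0.66). The Arc genes are alike in sequence, so how reads were divided among them is uncertain. Of 10 NMD and exon junction factors tested, 8 were above 0, none passed, and none was without overlap. Their median was 0.20, and 0.01 without PA36 replicate 1.

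Some gene lists lay to one side of 0 with few or no members that passed. Cytosolic ribosomal proteins, the protein part of the ribosome, were mostly below 0: of 86 tested, 85 had a fold change below 0 and 1 above, compared with 2734 of 9287 genes below 0 overall. Their median was -0.28, which is -0.39 relative to the median of all genes, and 13 (against 1.5% of all genes) were lower in all 5 libraries than in both PA36 libraries, yet none passed. RpL18 stood at 1850 and 2170 TPM in the PR36 libraries, 1708 and 1379 TPM in the (G4C2)36 libraries and 1569 TPM in the UPF1 RNAi library, against 2349 and 2341 TPM in the PA36 libraries (log2 fold change -0.45, adjusted p = 0.9). Summed over the list, the level was 164867 and 183243 TPM in the PR36 libraries, 147972 and 113246 TPM in the (G4C2)36 libraries and 136186 TPM in the UPF1 RNAi library, against 177579 and 177860 TPM in the PA36 libraries. PR36 lies on both sides of PA36 in this sum, while (G4C2)36 and UPF1 RNAi lie below it. Taken by genotype, PR36 had a median of -0.03, with 32 of 86 above 0, (G4C2)36 had -0.43, with 2 above 0, and UPF1 RNAi had -0.39, with 2 above 0. PR36 thus lay near PA36 in this list, and the difference between the genotypes was not tested. The yolk protein genes, which fat body and ovary express, held 16.3% of the listed TPM of (G4C2)36 replicate 2, the library with the lowest ribosomal sum, against 5.05% to 9.79% of the other 6, and the part of this in the result was not tested. Without that library the ribosomal median was -0.18, and under quantile normalization it was -0.13, with 13 of 86 above 0. In single libraries a member could be far from the rest: RpS14a stood at 7.66 TPM in (G4C2)36 replicate 2 and at 1806 to 2154 TPM in the other 6 libraries, and RpS21 at 9.44 TPM in PR36 replicate 1 and at 354 to 522 TPM in the others.

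**Figure D4:**
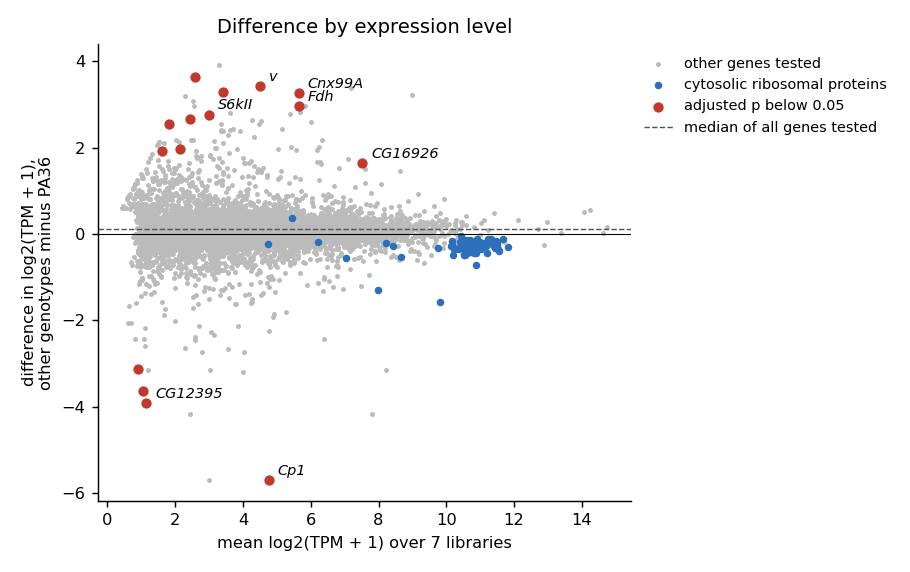
Difference in log2(TPM + 1) between the other genotypes and PA36 for 9287 genes against their mean level, with the 15 genes that passed in red and 86 cytosolic ribosomal proteins in blue. The ribosomal proteins form a band below 0 at high level (median -0.28), under the dashed median of all genes (0.12); Cp1 lies lowest of the red points, at -5.70.

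Chaperones of the endoplasmic reticulum and genes of the unfolded protein response, which Cnx99A belongs to, were all above 0 (25 of 25), beside 6553 of all 9287 genes. Their median was 0.18, or 0.06 relative to all genes. Of these, 9 were higher in all 5 libraries than in both PA36 libraries (8.67% of all genes are), and Cnx99A was the only one that passed. Most differences were small. The chief chaperone Hsc70-3 (BiP) stood at 195 and 193 TPM in the PR36 libraries, 272 and 210 TPM in the (G4C2)36 libraries and 257 TPM in the UPF1 RNAi library, against 191 and 178 TPM in the PA36 libraries, and the sensor Ire1 at 24.1 to 34.2 TPM in the other genotypes against 22.1 and 23.7 TPM in PA36. In both genes the lowest library of the other genotypes lies next to the higher PA36 library. After median-of-ratios rescaling 21 of the 25 were above 0 and 4 below, and without PA36 replicate 1 it was 22 and 3.

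Synapse and vesicle cycle genes lay above the median of all genes, and this rested on 1 PA36 library. Of 30 tested, 26 were above 0 (6553 of all 9287 genes were), with a median of 0.28, 9 without overlap (8.67% of all genes are) and none that passed. Without PA36 replicate 1 the split was 16 above and 14 below 0, with a median of 0.04, next to 0.03 over all genes. Syt1, the calcium sensor of transmitter release, stood at 330 and 336 TPM in the PR36 libraries, 350 and 375 TPM in the (G4C2)36 libraries and 403 TPM in the UPF1 RNAi library, against 229 and 313 TPM in the PA36 libraries. The active zone gene Rim stood at 4.84 to 5.95 TPM in the other genotypes and at 0.313 and 4.5 TPM in PA36, and the fusion protein gene Syx1A at 40.6 to 98.4 TPM in the other genotypes and at 0.344 and 82.1 TPM in PA36. PA36 replicate 1 was the low library in all 3. Heat shock genes, which were high in that library, had a direction that turned with the PA36 library used: of 19 tested 4 were above 0 (median -0.15), against 17 (median 1.13) without PA36 replicate 1 and 4 (median -2.29) without PA36 replicate 2. Without PR36 replicate 1, which was high too, 3 were above 0 (median -1.14). None passed in any of these, and with all libraries the median by genotype was 0.18 for PR36, -0.27 for (G4C2)36 and -1.23 for UPF1 RNAi.

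Enzymes around vitamin B6 and amino acid derived transmitters had a median of 0.25 over 16 tested genes, 14 of them above 0, with none that passed. The median was 0.10, with 10 above 0, without PA36 replicate 1, and 0.14, with 13 above 0, without (G4C2)36 replicate 1. By genotype it was 0.05 for PR36, 0.56 for (G4C2)36 and 0.18 for UPF1 RNAi. Ddc, which makes dopamine and serotonin and needs vitamin B6, stood at 114 and 115 TPM in the PR36 libraries, 179 and 125 TPM in the (G4C2)36 libraries and 179 TPM in the UPF1 RNAi library, against 85.7 and 87.9 TPM in the PA36 libraries. Gad1, which makes GABA, stood at 258 to 379 TPM in the other genotypes against 219 and 230 TPM in PA36, and Trh, the tryptophan hydroxylase of neurons, at 13.4 to 35.7 TPM in the other genotypes against 10.3 and 10.5 TPM in PA36. In these 3 of the 16 genes (8.67% of all genes) all 5 libraries lie above both PA36 libraries, the reverse of sgll, and their adjusted p were 0.9. For the next 3 lists the genotypes did not share a direction against PA36. Muscle genes had a median of 0.17 for PR36, 0.69 for (G4C2)36 and -0.27 for UPF1 RNAi, oxidative phosphorylation genes 0.02 for PR36, 0.32 for (G4C2)36 and -0.18 for UPF1 RNAi, and cuticle protein genes 0.44 for PR36, 0.61 for (G4C2)36 and -0.22 for UPF1 RNAi. Over all 37 lists, 7 genes passed: v, Fdh, Cp1, Cnx99A, S6kII, Uhg1 and hpRNA:CR33940.

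**Figure D5:**
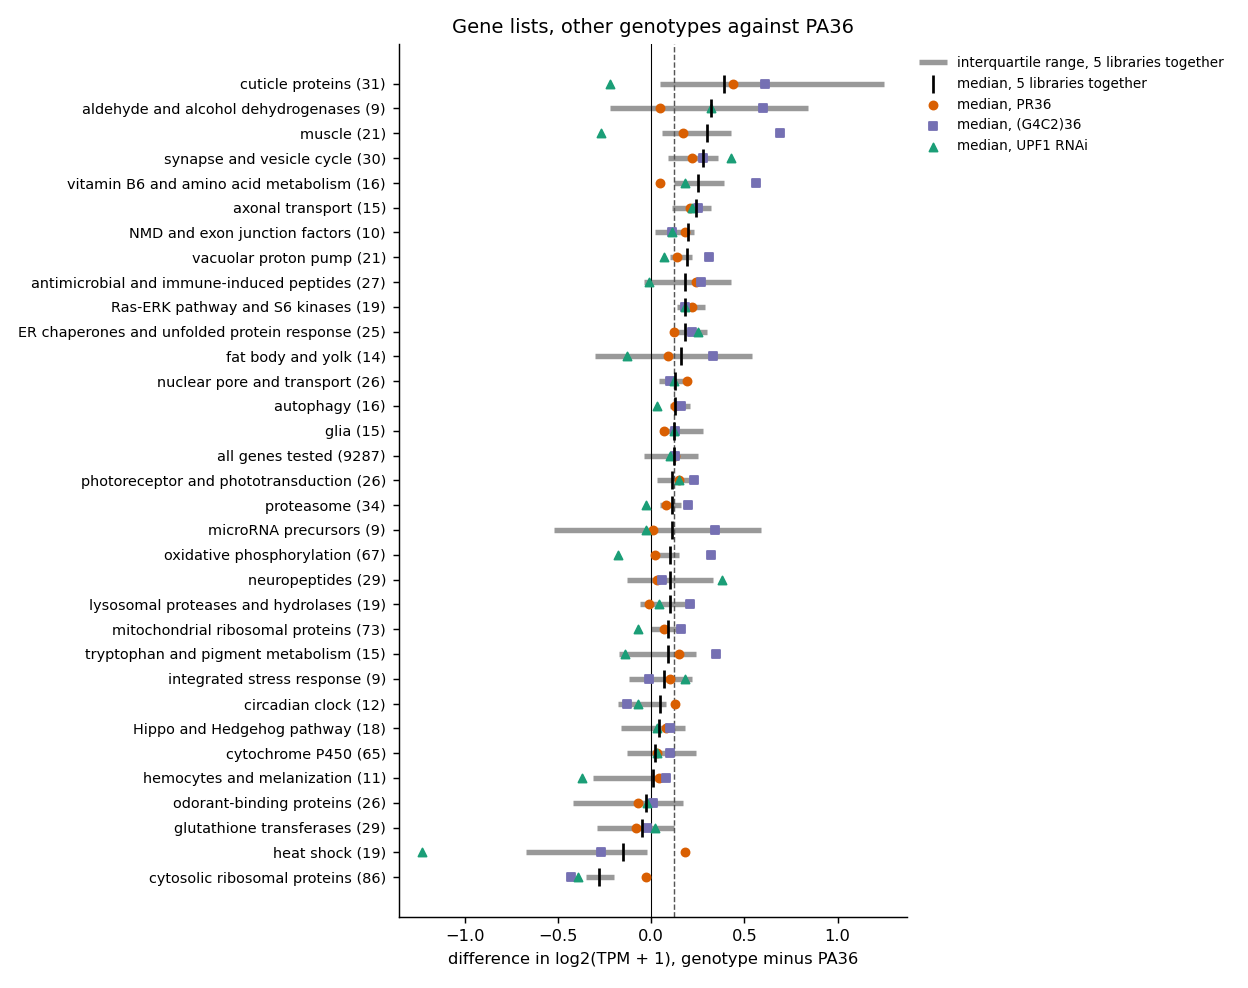
Median difference in log2(TPM + 1) from PA36 for each list with at least 9 genes tested (number in brackets), for the 5 libraries of the other genotypes together (black tick, with the interquartile range over genes as a grey bar) and for PR36, (G4C2)36 and UPF1 RNAi alone. The dashed line is the median of all genes, 0.12; cytosolic ribosomal proteins lie at -0.28, with PR36 at -0.03.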

How the data were processed

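The authors deposited 1 table of TPM for 26309 transcripts. Per the submitters' processing notes the build was BDGP6, and HISAT2 2.1 was used. Neither the counting program nor its annotation is given in the sources used here, and use of strand is likewise not stated there. Lines hold 11 cells under 10 header names; names were read from the left, and 1 unnamed value column was not used. The design spoke of gene values, so transcripts were summed to 13656 genes with the BDGP6 Ensembl annotation (99.4% matched; 11597 genes have every reference transcript listed), which also gives the coordinates. Genes whose mean over 7 libraries reached 1 TPM were tested on log2(TPM + 1) in R 4.3.3 with limma 3.58.1, the 5 other libraries against 2 of PA36, empirical Bayes with a trend, two-sided, with Benjamini-Hochberg adjustment over all genes. Residual degrees of freedom were 5 and prior ones 3.1. The same model set PR36 and (G4C2)36 against the rest. It was tested on simulated data. Python 3.11.15, pandas 2.3.3, numpy 2.4.6 and matplotlib 3.10.9 were used for the rest. Depth is unknown, so no counting intervals are given, and genes at 0 get no fold. A gene near 0 on 1 side reached the filter only through the other side. Its p-value is no support beyond the values printed.

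Named genes were those that passed, without overlap and with the higher group at 5 TPM or more (up to 12 per direction), filled to 10 per direction by smallest p, list members that passed, every reported NMD target and marker locus, and Upf1. Genes below 5 TPM, neighbours, transcripts and examples from lists were picked with their values in view. The comparison, the lists and the markers were chosen with earlier results of these data known. Alternatives covered the pseudocount, the filter, scaling, equal weight per genotype, limma options, genes with every transcript listed, the replicate number as a block, each library left out, and PA36 replicate 1 and PR36 replicate 1 left out together.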

Additional observations from a re-analysis of the deposited data

Results flagged for a closer look

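Over the 5 libraries of the other genotypes, 3 of 32 genes checked had 1 library set apart from the other 4 by Dixon's criterion (critical value 0.71 for 5 values), which chance meets in about 1 in 20 groups. These 5 libraries come from 3 genotypes. CG12395 stood at 0.0797 TPM in PR36 replicate 2 and was listed at 0 in the other 4. The hairpin RNA gene hpRNA:CR32207 stood at 2.54 TPM in (G4C2)36 replicate 2 and was listed at 0 in the other 4. With 4 values at 0 the criterion is met by any value above 0 in the last one, so it says nothing about these first 2 genes. Xanthine dehydrogenase, rosy (ry), stood at 3.76 TPM in (G4C2)36 replicate 1 and at 11.7 to 15.2 TPM in the other 4. On the TPM as printed, ry falls just short of the critical value, so its flag depends on the scale used.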

How the results depend on the processing

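Cp1 and v passed under every alternative that could be computed for them, no called gene changed direction under any, and 67 alternatives of single genes ended a call. The 15 calls against PA36 became 7 with a filter of 5 TPM and 29 with equal weight per genotype, and 10 to 54 with 1 library left out. The 11 higher calls became 6 with the 5 TPM filter, 18 without both PA36 replicate 1 and PR36 replicate 1, and 6 to 45 with 1 library left out. The 4 lower calls became 1 with a pseudocount of 0.1, 10 with no filter, 1 with the 5 TPM filter, 13 with equal weight, 1 without both of those libraries, and 4 to 9 with 1 library left out. The 7 calls of PR36 against the rest became 4 with a pseudocount of 0.1, 11 with no filter, 24 with equal weight, 4 with the replicate block, 16 without both libraries, and 4 to 30 with 1 left out. The 18 of (G4C2)36 became 10 with a pseudocount of 0.1, 31 with no filter, 9 with the 5 TPM filter, 37 with equal weight, and 9 to 39 with 1 left out. With the 5 TPM filter only 9 of the 15 genes called against PA36 were still tested, and 2 of these lost their call. Uhg1, hpRNA:CR33940 and CG12395 were not among those tested. Most of that fall in calls against PA36 is thus removal by the filter and not a failed test. The causes of the other changes were not tested. A fit that leaves out 1 PA36 library has 1 library on that side and assumes that it varies like the rest. Of the 15 called genes, 10 lost their call without PA36 replicate 1 and PR36 replicate 1 together, 7 without PA36 replicate 1 and 5 without PA36 replicate 2. Differences between replicates 1 and 2 correlated at -0.08, 0.10 and -0.07 between genotypes, so no pairing by replicate number was seen across genes. These correlations cannot exclude a pairing that touches some genes. Heat shock sums were higher in replicate 1 than in replicate 2 in PR36 (11040 and 2587 TPM), PA36 (9163 and 2580 TPM) and, less so, (G4C2)36 (3596 and 2904 TPM). With the replicate number as a block, 12 genes were called against PA36, 8 higher and 4 lower. Depth is unknown, so counting error is not covered.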

Other observations

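By chromosome arm, the 15 genes (0.162% of 9287 tested) lie on X (4 of 1540 tested), 2L (1 of 1627), 2R (5 of 1899), 3L (2 of 1777) and 3R (3 of 2270), with 0 of 88 on chromosome 4. These counts are too small to compare the arms. Genes of the small chromosome 4 were more often above PA36 in all 5 libraries, at 16 of 88 (18.2%) against 6.49% on X to 10.3% on 2L, with a median log2 fold change of 0.20 against 0.09 on X to 0.13 on 2L and 3L. This share was not tested.

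Several other lists had medians near that of all genes, 0.12, of which 6553 of 9287 were above 0. Photoreceptor and phototransduction genes had a median of 0.11 (24 of 26 above 0), glial genes 0.12 (13 of 15), autophagy genes 0.13 (15 of 16) and proteasome genes 0.11 (28 of 34), and none of these genes passed. Hemocyte and melanization genes had a median of 0.01 (6 of 11 above 0), and fat body and yolk genes one of 0.16 (9 of 14), with none that passed. Antimicrobial and immune-induced peptide genes had a median of 0.24 for PR36, 0.27 for (G4C2)36 and -0.01 for UPF1 RNAi over PA36, and 0 of 27 passed. Neuropeptide genes had medians of 0.03 for PR36, 0.06 for (G4C2)36 and 0.38 for UPF1 RNAi, and 0 of 29 passed.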
